A study of Rattus norvegicus with 12 samples.

Results

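The transcripts described here were higher after knockdown of Cklf1 in rat aortic smooth muscle cells exposed to tumour necrosis factor alpha (TNF), and moved little when Cklf1 was overexpressed without TNF. They were chosen by their measured values, in FPKM (fragments counted, scaled to the transcript's length and the library's total). Their mean over the 12 libraries was 2 to under 400 FPKM. On the log2(FPKM + 1) scale the mean of the knockdown group was at least 0.7 above that of the scramble group, and all 3 knockdown libraries lay above all 3 scramble libraries. The difference between Ad-Cklf1 and Ad-GFP was under 0.3 in either direction, and the mean of the 6 hairpin libraries was less than 1.5 from that of the other 6. These conditions held for 125 of the 29330 transcripts listed, or 1.04% of the 12046 transcripts in that range of levels.

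The cells were primary vascular smooth muscle cells of male rats, labelled Sprague-Dailey, which had been cultured from pieces of the media of the thoracic aorta and were used at passage 4. All 4 groups, with 3 libraries each, were exposed to adenovirus overnight and then kept in 0.2% serum for 24 to 32 h. Ad-GFP carried green fluorescent protein, Ad-Cklf1 overexpressed Cklf1, the scramble group carried a scrambled short hairpin RNA, and the knockdown group carried a hairpin RNA against Cklf1. Both hairpin groups, and neither of the others, also received TNF at 25 µg/L for 24 h, so TNF, the kind of insert and any batch of the arm change together between the arms. Neither the promoter of the viral inserts nor the age of the rats is given in the sources used here. The labels speak of triplicates and name no rat or culture for any library, so p-values here measure the spread among the libraries alone, and it may be technical.

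CKLF1 is a secreted chemokine-like factor that attracts leukocytes, and it is encoded by a gene of the CMTM family. TNF is a cytokine that binds receptors on vascular cells and switches on inflammatory genes, largely through the transcription factor NF-kB. A short hairpin RNA is cut in the cell to a small RNA that directs the destruction of transcripts matching its sequence. A scrambled hairpin controls for the virus and for the processing of a hairpin as such.

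No gene names come with the transcript identifiers in the files, and 0 of the 29330 identifiers matched the gene table used here. Neither the level of Cklf nor markers of smooth muscle or other cell types were therefore checked, and the genes, positions and sequences of the members are not reported here. Identifiers are printed for 2 members, and the others are given by their rank among the 125 in the difference between knockdown and scramble, where rank 1 is the largest. In bulk RNA, more cells of a type and more RNA per cell cannot be told apart. Relative depth, estimated from the steps between low values with Ad-GFP replicate 1 at 1, was 0.973 to 1.29 in the Ad-GFP libraries and 0.722 to 0.829 in those of Ad-Cklf1. It was 0.616 to 0.660 for scramble and 0.616 to 0.758 for knockdown, so the scramble libraries were shallower than all 6 without TNF, and the part of depth in the results was not tested.

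The set was the part of a wider group that did not fall or rise much with Cklf1. In the range of 2 to under 400 FPKM, 387 transcripts were at least 0.7 higher in knockdown than in scramble, and 330 of them had no overlap between the 3 libraries of each group. Of the 330, 164 were lower by 0.3 or more in Ad-Cklf1 than in Ad-GFP, 17 were higher by 0.3 or more, and 149 lay between. The limit on the difference between the arms then removed 20 transcripts that were higher in the hairpin arm and 4 that were lower there. The bound on the overexpression effect cut through a continuous range: the members nearest to it were at -0.29 and 0.29, and the nearest transcripts beyond it at -0.30 and 0.35. Inside the bound the members still leaned to one side, with 88 (70.4%) lower and 37 higher in Ad-Cklf1 than in Ad-GFP. Of all transcripts in range, 49.3% were lower. The median difference was -0.11 on the log2(FPKM + 1) scale, against 0.005 over all in range.

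Near the lower bound of the knockdown effect the values were also continuous. The 2 members just inside it, ranks 124 and 125, both differed by 0.70 on the log2(FPKM + 1) scale. Rank 124 was at 5.88, 3.80 and 4.08 FPKM in scramble, against 7.43, 7.53 and 9.10 FPKM after knockdown. Rank 125 was at 9.07, 9.68 and 9.54 FPKM in scramble, against 16.3, 15.9 and 15.7 FPKM after knockdown. The 2 transcripts just outside it also had differences that round to 0.70, but fell short of the bound, with 8.89 ± 1.12 against 15.1 ± 2.21 FPKM and 3.05 ± 0.244 against 5.58 ± 0.419 FPKM (SD, n = 3 each) in scramble and knockdown. Members and non-members at the bound therefore had similar values.

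Most members differed by less than 1 unit on the log2(FPKM + 1) scale. The difference between knockdown and scramble had a median of 0.86 over the members, with quartiles of 0.78 and 1.02, against a median of 0.01 over the 12046 transcripts in range. It was below 1 in 91 members, at least 1.5 in 11 and at least 2 in 4. The members were also expressed at lower levels than transcripts in that range, with a median of 7.14 FPKM against 11.9 FPKM, and 49 of them (39.2%) lay between 2 and 5 FPKM, where 21.9% of all in range did. No member was listed at 0 in any library, and 103 were at 1 FPKM or more in all 12.

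Fitted over all 13698 transcripts averaging 1 FPKM or more, 118 of the 125 members were higher in knockdown than in scramble (limma, Benjamini-Hochberg adjusted p below 0.05), where 16% of all tested transcripts were called in that direction. In the difference between the knockdown and the overexpression effect 109 members were called higher, against a background of 19.3%. In Ad-Cklf1 against Ad-GFP 1 member was called lower, where 11.1% of all tested transcripts were, and 0 were called higher, against 7.8%. The choice of the members used these contrasts, so the counts describe the set and support nothing. The 7 members not called in the knockdown comparison included ranks 2 and 8, whose libraries within a group differed widely. The single member called in the overexpression comparison was rank 66, singled out here after its values were seen. It was at 55.3, 62.5 and 59.9 FPKM in Ad-GFP and at 50.2, 49.1 and 45.2 FPKM with Cklf1: the log2 difference was -0.29 with an SE of 0.06 (limma, adjusted p = 0.0109). The number called in that comparison depended on the fit: it was 6 in a fit of the 6 libraries compared, 4 when Ad-GFP replicate 1 was left out, and 2 when either Ad-GFP replicate 3 or Ad-Cklf1 replicate 3 was.

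A measure that the choice did not use was had by choosing the transcripts again without 1 replicate number of both hairpin groups and then reading the 2 libraries left out. Without replicate 1 of both groups, 146 transcripts met the conditions, and 128 of them (87.7%) were higher in the left-out knockdown library than in the left-out scramble library. Without replicate 2 this held for 110 of 123 (89.4%), and without replicate 3 for 130 of 156 (83.3%). Over all transcripts in range the share was 50.8%, 51.8% and 51.6% in those 3 pairs. The median difference in the left-out pair was 0.74, 0.89 and 0.63 log2 units, against 0.88, 0.88 and 0.92 in the libraries used for the choice and 0.00, 0.01 and 0.01 over all in range. A difference of at least 0.7 was reached by 53.4%, 68.3% and 38.5% of the chosen transcripts, where 3.87%, 4.45% and 4.95% of all in range reached it. The lists chosen without replicates 1, 2 and 3 shared 104, 102 and 109 transcripts with the members. In the libraries left out the direction was mostly the same, and the size was the smallest in replicate 3. Those libraries come from the same hairpin groups and may be technical replicates of the ones used. The shares therefore describe these lists only. The labels do not say that the replicate numbers pair samples, so these pairs were taken as arbitrary.

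**Figure D1:**
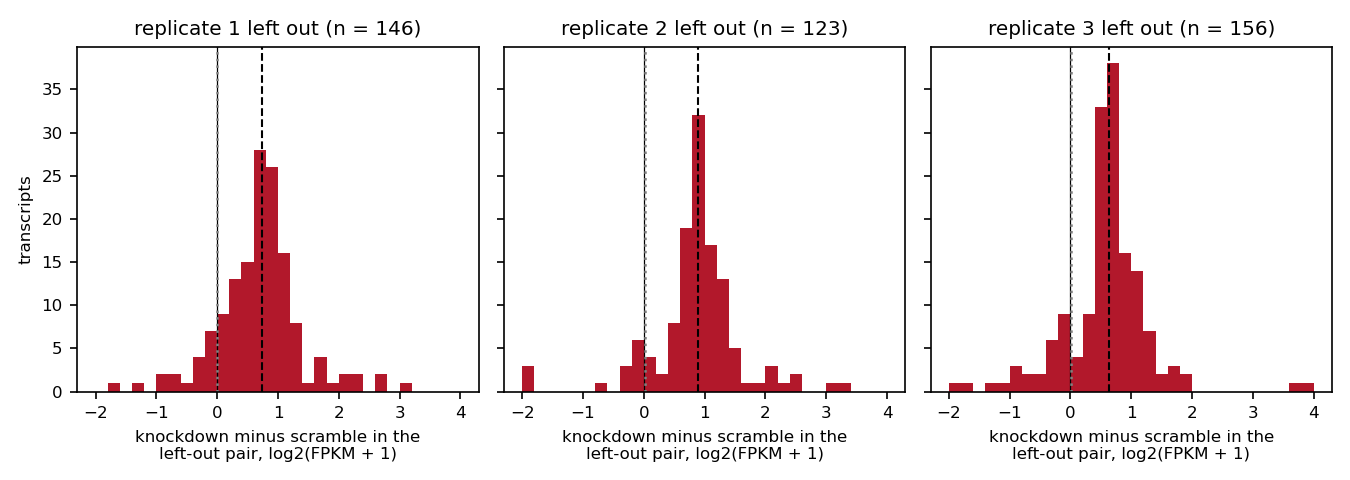
Histograms of the difference between the left-out knockdown and the left-out scramble library, in log2(FPKM + 1) units, for the transcripts chosen without that replicate number (n = 146, 123 and 156). The dashed line is their median (0.74, 0.89 and 0.63), the dotted grey line the median over all transcripts in range, and 4 values beyond the axis are drawn in the end bins.

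The members fell into kinds by where the scramble libraries lay against the 6 libraries without TNF, a split made after the values were seen. In 63 members (50.4%) all 3 scramble libraries were below all 6, where 26% of all tested transcripts were. In 23 members (18.4%) all 3 were above all 6, where 24.6% of tested transcripts were. In the other 39 (31.2%) the scramble libraries overlapped them, where 47.3% of all transcripts in range did. The scramble libraries also served to choose the members, which favours low values there, so the shares are a description of the set. Chosen anew without 1 library at a time, the set had scramble below in 59 to 80 members, above in 20 to 28 and overlapping in 32 to 49. The count below was the highest without scramble replicate 3, with 80 below, 21 above and 38 overlapping, and the count above without knockdown replicate 3, with 64, 28 and 49.

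The knockdown libraries lay above all 6 libraries without TNF in 63 members, where 19% of tested transcripts did, and below all 6 in 16, where 19% did as well. They overlapped the 6 in the remaining 46 (36.8%), where 60.3% of all transcripts in range did. In the fit over all transcripts, scramble was lower than Ad-GFP for 64 members (background 30.6%) and higher for 16 (background 28.8%), and knockdown was higher than Ad-GFP for 65 (background 23.2%) and lower for 19 (background 25.4%). The median difference from Ad-GFP was -0.47 in scramble and 0.46 in knockdown, against -0.004 and -0.01 over all tested transcripts. These comparisons share the Ad-GFP libraries with each other and the hairpin libraries with the choice of members.

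**Figure D2:**
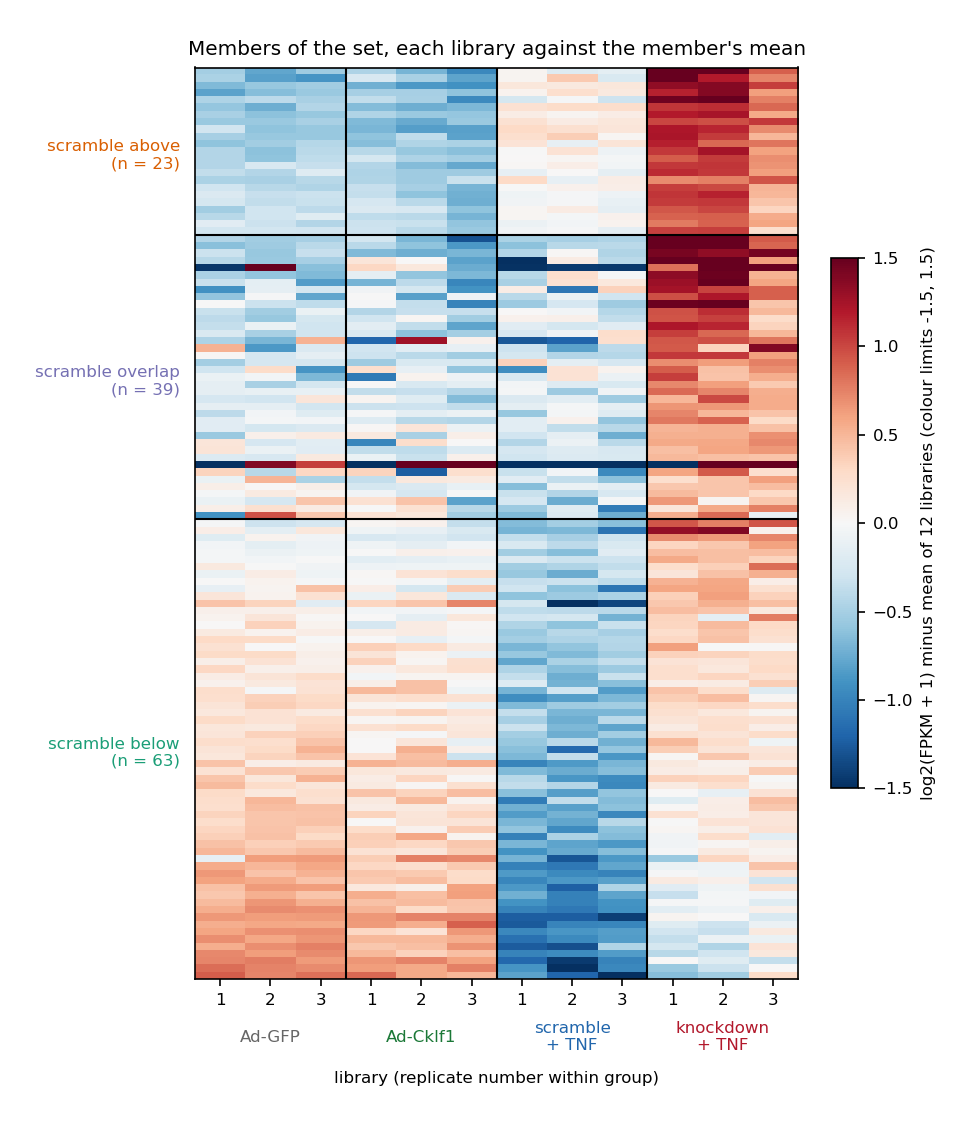
Heat map of the 125 members (rows) in the 12 libraries (columns), as log2(FPKM + 1) minus the member's own mean, with colours limited to -1.5 and 1.5. The rows are grouped by the position of scramble against the 6 libraries without TNF (23 above, 39 overlapping, 63 below) and sorted within a group by knockdown minus Ad-GFP; in the 23 rows above, the knockdown replicate 3 column is paler than those of replicates 1 and 2 in most.

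Of the members at 1 FPKM or more in every library, the 2 with the largest differences had scramble levels that overlapped those without TNF. In 30 members (24%) the scramble libraries overlapped the 6 without TNF and all 3 knockdown libraries were above them, as in 4.42% of all transcripts in range. The choice put all knockdown libraries above scramble, which held for 22.3% of tested transcripts. It thereby favours this position, so the share describes the set only. ENSRNOT00000002695, at rank 3, had the largest difference of these 30 members. It was at 18.8, 17.8 and 18.0 FPKM in Ad-GFP, at 21.2, 15.7 and 9.85 FPKM in Ad-Cklf1 and at 18.4, 18.1 and 18.5 FPKM in scramble, whereas the knockdown libraries were at 118, 112 and 49.8 FPKM. The ratio of the knockdown to the scramble mean was 5.10, and the log2 difference was 2.19. Its level with the scrambled hairpin and TNF was the same as in Ad-GFP within the spread of the replicates (18.3 ± 0.242 against 18.2 ± 0.553 FPKM, SD, n = 3 each). Knockdown replicate 3 stood at 0.431 of the mean of replicates 1 and 2, and Ad-Cklf1 replicate 3 was the lowest of the 12 libraries.

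Ranks 4 and 10 had the same shape at lower levels. Rank 4 was between 1.03 and 1.79 FPKM in the 9 libraries outside the knockdown group, and at 13.8, 13.7 and 5.77 FPKM in knockdown, a ratio of means of 6.72 to scramble. Rank 10 was at 5.72, 7.24 and 5.81 FPKM in scramble, against 26.2, 27.5 and 12.2 FPKM after knockdown, and at 8.77, 6.85 and 6.55 FPKM in Ad-GFP. In both, knockdown replicate 3 was less than 0.5 of the mean of the other two, at 0.419 and 0.453. Rank 7 was without this drop, at 6.83, 6.32 and 6.88 FPKM in knockdown and at 1.15, 1.95 and 1.14 FPKM in scramble; it is named here after its values were seen.

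Among abundant members the rank 112 transcript, second in level at a mean of 70.1 FPKM, belonged to the same kind. It was at 61.5, 61.6 and 55.7 FPKM in Ad-GFP and at 53.7, 54.4 and 52.0 FPKM in Ad-Cklf1. In scramble it was at 60.7, 66.3 and 61.3 FPKM, and in knockdown at 107, 107 and 99.9 FPKM. The 3 knockdown libraries were close to each other and far above the other 9, with a ratio of means to scramble of 1.67.

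**Figure D3:**
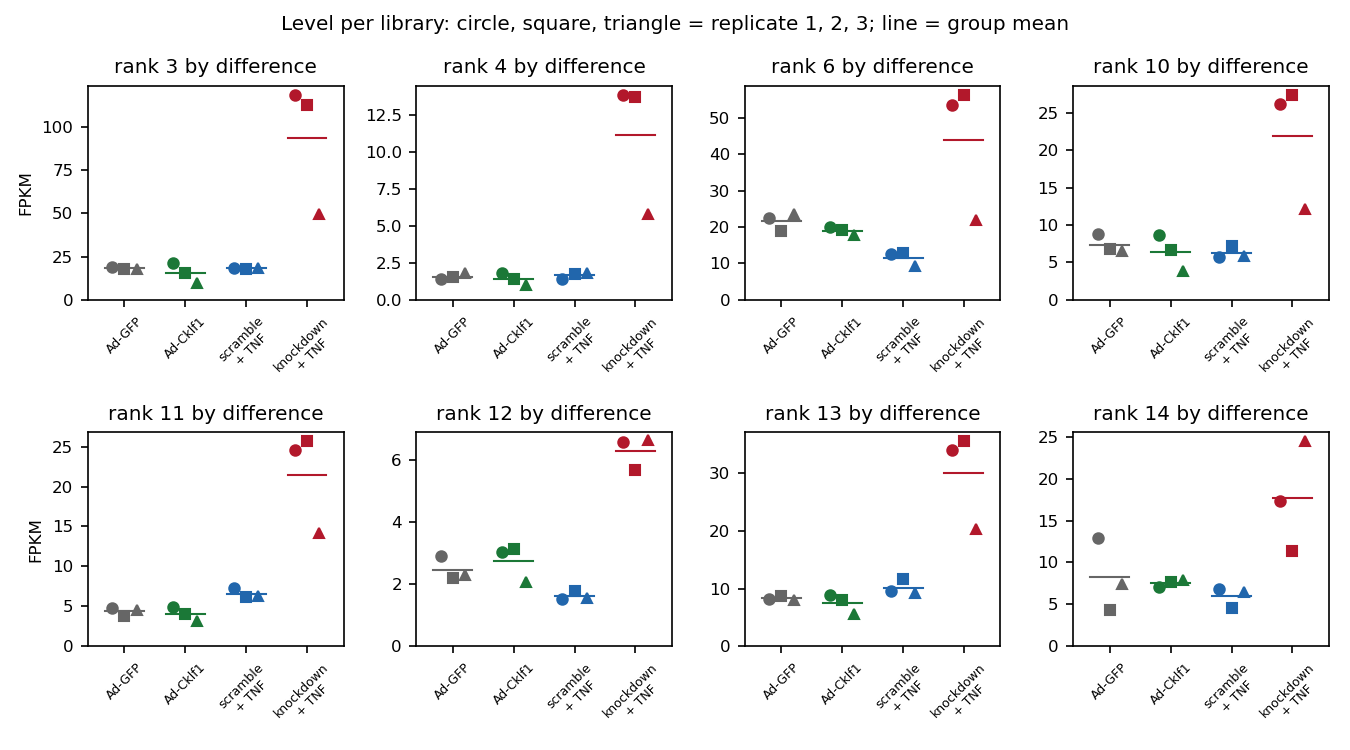
FPKM in each library for the 8 members with the largest knockdown minus scramble difference among those at 1 FPKM or more in all 12 libraries, 1 panel a member with its rank, each with its own axis from 0. Circles, squares and triangles are replicates 1, 2 and 3 and the line is the group mean; in 6 panels the knockdown triangle is the lowest knockdown point, and in those of ranks 12 and 14 it is the highest.

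In 23 members (18.4%) the levels stood in 2 steps, with scramble above all libraries without TNF and knockdown above scramble. Both hairpin groups were above all 6 in 15.0% of all transcripts in range, a share near that of the members. Their median level was 8.30 FPKM with GFP and 7.52 FPKM with Cklf1, 11.0 FPKM with the scrambled hairpin and 26.1 FPKM after knockdown. Rank 11 was at 4.74, 3.76 and 4.60 FPKM in Ad-GFP and at 7.36, 6.11 and 6.33 FPKM in scramble. Knockdown took it to 24.5, 25.6 and 14.1 FPKM, a log2 difference of 1.52 from scramble and 2.02 from Ad-GFP. Rank 13 went from 8.20, 8.66 and 8.07 FPKM in Ad-GFP to 9.63, 11.6 and 9.22 FPKM in scramble, and on to 34.1, 35.6 and 20.4 FPKM after knockdown. The first step of rank 13 was the smaller one, and the medians over the 23 had the same order, at 0.50 for scramble minus Ad-GFP and 0.89 for knockdown minus scramble.

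The first step was larger in rank 55, the sixth most abundant member. It was at 24.9, 28.0 and 29.7 FPKM in Ad-GFP, at 31.0, 31.1 and 28.8 FPKM in Ad-Cklf1 and at 45.9, 52.9 and 48.9 FPKM in scramble, whereas the knockdown libraries were at 99.6, 117 and 68.4 FPKM. Its log2 difference was 0.82 between scramble and Ad-GFP and 0.90 between knockdown and scramble, so that the steps were of similar size.

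In 56 of the 63 members with scramble below the libraries without TNF, the knockdown mean lay nearer to the Ad-GFP mean than the scramble mean did, and in 7 it lay farther away, above Ad-GFP. On the log2 scale knockdown covered a median of 90.4% of the distance from scramble to Ad-GFP, from 43.7% to 370% over these members. It covered more than all of the distance in 24, more than 50% up to 100% in 33, and 50% or less in 6. With scramble below Ad-GFP and knockdown above scramble, as chosen, the knockdown mean could only move toward Ad-GFP or past it. The counts and the median share therefore describe the set only. The choice required a difference of at least 0.7 and limited the difference between the arms, which bounds this share from below where scramble was only a little lower and removes members far below Ad-GFP in both hairpin groups.

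The most abundant member, ENSRNOT00000088795 at rank 95, was of this kind. It was at 220, 209 and 218 FPKM in Ad-GFP, at 184, 185 and 196 FPKM in Ad-Cklf1 and at 128, 108 and 135 FPKM in scramble, whereas the knockdown libraries were at 206, 214 and 210 FPKM. The knockdown mean, 210 ± 4.18 FPKM, was within the spread of Ad-GFP at 216 ± 5.89 FPKM, and the scramble mean was 124 ± 14.1 FPKM (SD, n = 3 each). The groups of scramble and knockdown did not overlap, as the choice required. Those of Ad-Cklf1 and Ad-GFP did not overlap either, but their log2 difference of -0.20 was not called (limma, adjusted p = 0.0937). Rank 66, described above for its overexpression effect, had the same profile, at 30.1, 33.0 and 33.1 FPKM in scramble, against 58.7, 59.9 and 58.0 FPKM after knockdown.

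Rank 118, the fourth in level, was at 35.2, 30.5 and 36.1 FPKM in scramble, against 54.9, 50.3 and 63.8 FPKM after knockdown. It was at 67.2, 61.1 and 65.4 FPKM in Ad-GFP and at 74.1, 69.1 and 75.6 FPKM in Ad-Cklf1, so it was among the members that leaned upward with Cklf1. Its knockdown mean remained 0.20 log2 units below Ad-GFP.

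In 37 of the 63 (29.6% of all members) the knockdown libraries overlapped the 6 without TNF, in 16 (12.8%) they were still below all 6, and in 10 (8%) they were above all 6. Over all transcripts in range, 11.9%, 15.1% and 0.232% had these positions of both hairpin groups, so the share that stayed below was near that of all transcripts. The choice put knockdown above scramble, which favours the other positions, so their larger shares describe the set only. Of those that stayed below, rank 18 had the largest difference. It was at 11.2, 11.1 and 11.2 FPKM in Ad-GFP and at 11.3, 12.1 and 12.0 FPKM in Ad-Cklf1. It was at 2.30, 2.32 and 1.93 FPKM in scramble, against 7.02, 6.82 and 5.69 FPKM after knockdown. Of those that went above, rank 12 had the largest difference, with 1.51, 1.78 and 1.57 FPKM in scramble against 6.56, 5.67 and 6.61 FPKM after knockdown, with 2.08 to 3.13 FPKM in the 6 libraries without TNF. Rank 18 was named here after its values were seen, as the first of its kind in size. Rank 6 had the largest difference of the 37, from 12.6, 12.8 and 9.19 FPKM in scramble up to 53.6, 56.5 and 22.0 FPKM after knockdown, and was at 17.7 to 23.7 FPKM without TNF. Its knockdown replicate 3 was inside that range, and replicates 1 and 2 were far above it.

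Ranks 107 and 116, both among the 6 most abundant, also ended above the libraries without TNF. Rank 107 was at 44.2, 41.1 and 41.4 FPKM in scramble, between 46.4 and 51.4 FPKM in the 6 libraries without TNF, and at 77.2, 70.9 and 65.6 FPKM in knockdown. Rank 116 was at 56.8, 50.6 and 56.8 FPKM in scramble, against 83.1, 88.2 and 102 FPKM after knockdown. In these members scramble was only 0.26 and 0.19 log2 units under Ad-GFP, and knockdown was 0.48 and 0.53 above it.

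**Figure D4:**
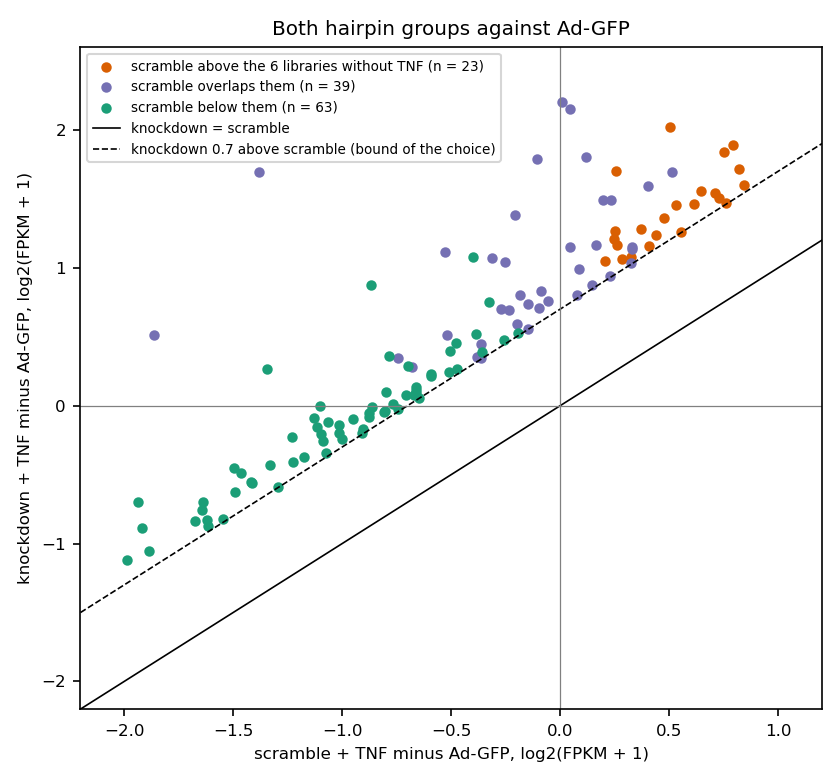
Each member's scramble minus Ad-GFP difference (horizontal) against its knockdown minus Ad-GFP difference (vertical), both in log2(FPKM + 1), coloured by the position of scramble against the 6 libraries without TNF (n = 23, 39 and 63). Both axes share the Ad-GFP libraries and the choice of members keeps all points above the dashed line, so the plot shows only where the members lie. On the vertical axis 86 (68.8%) were above 0 and 39 below 0, where 48.7% of all transcripts in range were above 0.

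In 9 members (7.2%) both hairpin groups overlapped the libraries without TNF, as in 38.2% of all transcripts in range. The choice put knockdown above scramble, which makes this position rarer, so the share describes the set only. Among these 9 were ranks 1, 2 and 8, the 3 members with a scramble library under 0.1 FPKM. Rank 2 was at 0.0226, 7.14 and 5.36 FPKM in Ad-GFP and at 0.0259, 7.98 and 8.82 FPKM in Ad-Cklf1. In scramble it was at 0.0371, 0.0347 and 0.0256 FPKM, and in knockdown at 0.0372, 8.49 and 14.7 FPKM. It thus jumped between a level near 0 and one above 5 FPKM inside 3 of the 4 groups, and the lowest knockdown library was only just above the highest scramble library. An FPKM per transcript rests on how reads were assigned among isoforms, and the part of that assignment in such jumps was not tested. Rank 8 was at 0.0861, 0.143 and 2.11 FPKM in scramble, against 4.02, 4.14 and 3.56 FPKM after knockdown. Rank 14 varied less, at 6.86, 4.61 and 6.43 FPKM in scramble, against 17.4, 11.3 and 24.5 FPKM after knockdown, but at 13.0, 4.35 and 7.42 FPKM in Ad-GFP.

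Within the knockdown group, where replicate 3 was the deepest library by the estimate above (0.758), it was the lowest in 69 of the 125 members (55.2%) and in 38.6% of all transcripts in range. The members also varied more between replicates than all transcripts in range. The median SD in log2 units was 0.18 against 0.10 in knockdown and 0.13 against 0.07 in Ad-Cklf1. It was 0.15 against 0.09 in scramble and 0.11 against 0.08 in Ad-GFP. The members were at lower levels, and the comparison was not matched for level. In 39 members (31.2%) knockdown replicate 3 was more than 0.3 log2 units below the mean of replicates 1 and 2, against 8.38% of all in range, and in 15 (12%) it was more than 0.3 above, against 8.82%. So low a replicate 3 was also common in other transcripts that met the knockdown conditions. It was found in 36 (22.0%) of the 164 lower with Ad-Cklf1 and in 5 (29.4%) of the 17 higher. The 39 were mostly of the kinds that ended above the libraries without TNF: 17 of the 23 with levels in 2 steps and 12 of the 30 with scramble alike to the groups without TNF. Of the 63 with scramble below, 8 were among them. In the 39 the median ratio to the scramble mean was 2.49 in knockdown replicate 1, 2.66 in replicate 2 and 1.58 in replicate 3. In the other 86 it was 1.93, 1.98 and 2.12.

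Most of these 39 members were also low in replicate 3 of another group. In 32 of the 39 (82.1%) Ad-Cklf1 replicate 3 was the lowest of its group, where this held for 49% of the 1009 transcripts in range with so low a knockdown replicate 3. Ad-GFP replicate 3 was the lowest of its group in 9 of the 39 (23.1%, against 36.9% of the 1009) and scramble replicate 3 in 22 (56.4%, against 46.8%). The median deviation of replicate 3 from the mean of the other two was -0.23 log2 units in Ad-Cklf1, -0.08 in scramble and -0.005 in Ad-GFP. Ad-Cklf1 replicate 3 was below all 3 Ad-GFP libraries in 31 of the 39, replicate 2 in 17 and replicate 1 in 12. Among the other 86 members these counts were 40, 42 and 44. The share over all transcripts in range was not computed, so the counts describe the members only.

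Across the 125 members the replicate 3 deviations of knockdown and Ad-Cklf1 correlated at r = 0.53 (Pearson) and rho = 0.53 (Spearman), and at r = 0.41 without the 2 members farthest from the median in knockdown. Over all 12046 transcripts in range r was 0.05 and rho was 0.14. Over the members, r was 0.09 and rho -0.04 between knockdown and Ad-GFP, 0.15 and 0.25 between knockdown and scramble, and 0.21 and 0.05 between Ad-Cklf1 and Ad-GFP. These are correlations across transcripts of the same libraries, which are not independent and may include isoforms of 1 gene, and the 2 groups share no library. Among the 164 transcripts that met the knockdown conditions but were lower with Ad-Cklf1, r was 0.31 and rho 0.45, and in 25 of the 36 with so low a knockdown replicate 3 that of Ad-Cklf1 was the lowest as well. No test of a difference between these groups of transcripts was made, so the pattern is not shown to be particular to the members.

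**Figure D5:**
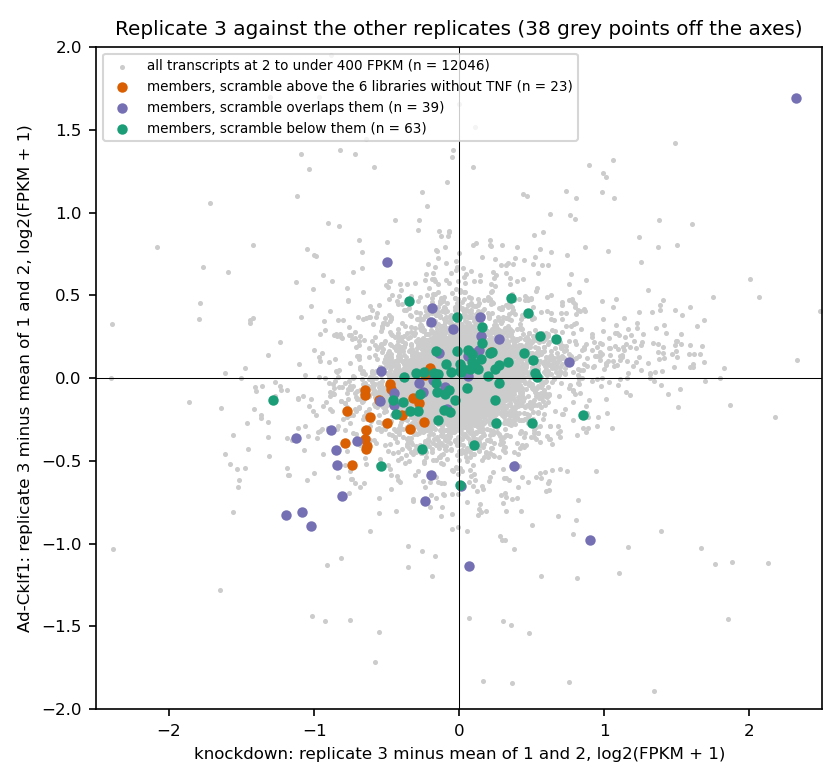
Deviation of replicate 3 from the mean of replicates 1 and 2 in knockdown (horizontal) and in Ad-Cklf1 (vertical), in log2(FPKM + 1), for the 125 members (coloured) and all 12046 transcripts at 2 to under 400 FPKM (grey, 38 off the axes). Most members in which scramble was above the libraries without TNF lie to the lower left, with median deviations of -0.50 and -0.20.

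Ad-Cklf1 replicate 3 therefore also bore on the overexpression effect of the set. The median difference from the Ad-GFP mean over all members was -0.07 in Ad-Cklf1 replicate 1, -0.08 in replicate 2 and -0.14 in replicate 3. Leaving out Ad-Cklf1 replicate 3 moved the median overexpression effect of the 125 members from -0.11 to -0.07 log2 units, against 0.00 over all tested transcripts in both fits. Without Ad-Cklf1 replicate 1 this median was -0.11, and without replicate 2 it was -0.12. In the 39 members with a low knockdown replicate 3 the median difference was 0.04, -0.08 and -0.31 in Ad-Cklf1 replicates 1, 2 and 3. The downward lean with Cklf1 in those members was thus the largest in replicate 3 and smaller in replicate 2, and its source was not tested. In the other 86 members the lean was alike in all replicates, with median differences of -0.10, -0.07 and -0.08 in Ad-Cklf1 replicates 1, 2 and 3.

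The transcripts that met the same knockdown conditions but were lower with Ad-Cklf1 by 0.3 or more were placed against the libraries without TNF in the same way. Of these 164, 98 (59.8%) had scramble below all libraries without TNF and 18 (11.0%) above, and knockdown was above all of them in 48 (29.3%). For the members the shares were 50.4%, 18.4% and 50.4%. Their median knockdown effect was 1.03, against 0.86 for the members. The bound on the overexpression effect chose between these lists on Ad-GFP and Ad-Cklf1 values, which also set the range that scramble and knockdown are compared with, so no test was made of the shares.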

How the data were processed

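RNA from 12 samples of adenovirus-treated cells was sequenced after oligo(dT) selection and random-hexamer priming, per the labels' protocols. The deposited values are 1 FPKM per Ensembl transcript and library, as read from the file headers and the values; the genome build Rnor 6.0 is named in the submitters' processing notes, while how reads were aligned, quantified or scaled between libraries is not given in the sources used here. The libraries sum to between 492242 and 627410 FPKM, and 8164 to 9735 transcripts are listed at 0. Read depth is not recorded in FPKM, so no counting intervals are given.

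The members and lists were chosen with earlier results of these data known. A limma fit (version 3.58.1, R version 4.3.3) on log2(FPKM + 1) took the 13698 transcripts whose mean reached 1 FPKM, used all 12 libraries with a separate mean for every group, and adjusted p-values (Benjamini-Hochberg) over all of those transcripts. The fit was tried on simulated data with independent libraries as a check of the code, which says nothing about the members. All 125 members passed the filter. Fold changes on this scale understate the change of low transcripts. The naming rule took 8 members with the largest difference among those at 1 FPKM or more throughout, 4 of those near 0 in scramble (3 existed), the 6 most abundant, and 2 on either side of the bound of 0.7; others are marked in the text. Alternatives were another pseudocount, no filter, other scalings, a replicate block, fewer libraries and another prior. Gene lists and cell type markers could not be used without gene names.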

Additional observations from a re-analysis of the deposited data

How the results depend on the processing

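The choice of members depended most on its own bounds. A bound of 1 on the knockdown effect left 34 members, and a bound of 0.15 on the overexpression effect left 64. With a pseudocount of 0.1, 139 transcripts met the rule, of which 103 were among the 125; with upper-quartile scaling it was 117, of which 114 were, and with median-ratio scaling all 125. Leaving out 1 library gave 117 to 141 members, sharing 104 to 118 with the set. The number called between Ad-Cklf1 and Ad-GFP was 3 with a trend and robust prior and 6 in a fit of the libraries compared, and ranged from 1 to 4 when 1 library was left out; the cause was not tested. The other counts of called members stayed within 1.5 times. The median in the left-out hairpin pair was 0.73 over the 3 pairs and ranged from 0.63 to 0.89. The replicate block gave 119 members called higher in knockdown, 1 in Ad-Cklf1 against Ad-GFP, 106 in the difference, 85 in scramble and 85 in knockdown against Ad-GFP. The numbers were not taken as pairing, since the labels do not state one. Between groups, deviations of libraries with 1 number had correlations from -0.05 to 0.09. For 8 of the 12 libraries the highest was within their own number, and whether a number marks a shared batch was not tested. A pseudocount of 0.1 moved the difference of rank 1 from 3.07 to 5.90, that of rank 2 from 2.38 to 4.29, that of rank 8 from 1.64 to 3.11 and that of rank 12 from 1.47 to 1.89. Counts by position and of replicate 3 under other scalings were added after seeing the data and stayed within 1.5 times. FPKM holds no read counts, which limits what can be said of members near 0.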
